A study of Mus musculus with 19 samples.

Results

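The genes described here encode 9 small leucine-rich proteoglycans of the extracellular matrix, Bgn, Dcn, Aspn, Lum, Fmod, Prelp, Omd, Ogn and Podn. They were taken by symbol as a fixed list of family members, and all 9 were found among the 55536 genes counted and among the 15503 genes with enough counts to be tested. Proteins of this family share a curved core of leucine-rich repeats that binds collagen, and many carry sulfated sugar chains. They set the spacing and width of collagen fibrils, hold growth factors such as transforming growth factor beta in the matrix, and, once released, can act on receptors of the cell surface. In the heart they are made mainly by fibroblasts and belong to the matrix that is remodelled in fibrosis.

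RNA of the mouse ventricle was measured in wild types (WT) and in animals with a heart-specific, inducible loss of Mpc1 that was started in adult life (KO). The protein MPC1 is 1 of the partner subunits through which pyruvate crosses the inner mitochondrial membrane. Tissue was taken 8 or 16 weeks after induction, which gave WT-8 (wild type, 8 weeks, 5 libraries), KO-8 (Mpc1 knockout, 8 weeks, 4 libraries), WT-16 (wild type, 16 weeks, 5 libraries) and KO-16 (Mpc1 knockout, 16 weeks, 5 libraries). The labels give neither the Cre driver nor the inducing agent, nor whether the wild-type mice received it, and they state no age beyond adult. Whether libraries and animals correspond 1 to 1 is not stated either, and all p-values rest on the spread among libraries, which may be technical. Time points were sequenced in different runs, so no level was tested between 8 and 16 weeks. In bulk tissue fewer cells of a type and less RNA per cell cannot be told apart.

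Most of these genes lie in small clusters of the family in the mouse genome (GRCm38). Dcn (ENSMUSG00000019929, chr10:97479609-97518143) and Lum (ENSMUSG00000036446, chr10:97565128-97572703) are neighbours on the plus strand, and Prelp (ENSMUSG00000041577, chr1:133910304-133921414, minus strand) and Fmod (ENSMUSG00000041559, chr1:134037254-134048277, plus strand) share a stretch of chromosome 1. Aspn (ENSMUSG00000021388, chr13:49544443-49567565), Omd (ENSMUSG00000048368, chr13:49582462-49592822) and Ogn (ENSMUSG00000021390, chr13:49608046-49624501) follow each other on the plus strand of chromosome 13, downstream of their relative Ecm2 (chr13:49504810-49532789). All 3 lie inside the gene body of Cenpp on the opposite strand, and the strand-specific counting kept reads of both strands apart. Bgn (ENSMUSG00000031375) lies at chrX:73483602-73495933 on the plus strand and Podn (ENSMUSG00000028600) at chr4:108014791-108096445 on the minus strand. The span of Podn holds Scp2 on the same strand, but the annotated exons of these genes share 0 of the 4270 exon bases of Podn.

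The promoters of the chromosome 13 neighbours are shown because these genes lie side by side and had KO-16 log2 fold changes of 1.02 (Aspn, passed), 1.44 (Omd, passed) and 0.17 (Ogn, did not pass). The differences between these genes were not tested. Each sequence holds the 250 bases before the transcription start in RefSeq (GRCm38.p6), 5′ to 3′ on the plus strand, at chr13:49544193-49544442 for Aspn, chr13:49582212-49582461 for Omd and chr13:49607765-49608014 for Ogn. The RefSeq start of Ogn lies upstream of the gene start given above. Capitals mark matches, on either strand, to TATAAA (the TATA box), CATTCC (a motif of TEAD factors) and TGTGGT (a motif of RUNX factors).
Aspn: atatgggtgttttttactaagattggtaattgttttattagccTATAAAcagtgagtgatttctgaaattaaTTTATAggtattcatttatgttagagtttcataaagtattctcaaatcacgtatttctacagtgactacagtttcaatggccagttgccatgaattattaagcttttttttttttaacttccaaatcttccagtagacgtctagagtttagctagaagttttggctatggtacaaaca
Omd: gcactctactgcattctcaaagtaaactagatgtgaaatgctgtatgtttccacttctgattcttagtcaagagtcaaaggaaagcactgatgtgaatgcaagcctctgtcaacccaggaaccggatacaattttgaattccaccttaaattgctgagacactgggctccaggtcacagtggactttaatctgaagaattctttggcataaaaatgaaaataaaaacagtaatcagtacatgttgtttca
Ogn: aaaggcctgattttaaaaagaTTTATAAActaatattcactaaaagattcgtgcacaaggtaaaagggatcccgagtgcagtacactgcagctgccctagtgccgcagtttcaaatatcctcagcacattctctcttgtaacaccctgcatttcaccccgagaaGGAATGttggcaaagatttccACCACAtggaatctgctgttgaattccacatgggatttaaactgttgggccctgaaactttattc
TATAAA was found in Aspn (at -207 to -202 and, on the minus strand, -178 to -173, counted from the start) and in Ogn (at -229 to -224 on the minus strand and -227 to -222, which overlap). CATTCC at -86 to -81 and TGTGGT at -65 to -60, both on the minus strand, were in Ogn alone among the 7 members with a promoter in the table. TGANTCA, the AP-1 motif, was in none of the 7. In the same 250 bases before the start, TATAAA was present in 12.4%, CATTCC in 12.6%, TGTGGT in 14% and TGANTCA in 6.75% of 32851 mouse promoters, so each match is common. These are matches of letters only.

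Library totals ranged from 16.5 to 27.5 M counted read pairs at 8 weeks and from 8.63 to 26.9 M at 16 weeks. Residual 18S ribosomal RNA took up to 0.0666% of the counts at 8 weeks, 6.88% to 39.1% in WT-16 against 1.71% to 30.0% in KO-16. By their Y-linked transcripts, 1 WT-16 library (replicate 5) and 1 KO-16 library (replicate 4) came from males and the other 17 libraries from females. The spread between libraries of a group was larger at 16 weeks (biological coefficient of variation 0.24) than at 8 weeks (0.0936). Levels are counts scaled by library size (CPM). Differences are log2 fold changes of KO over WT from edgeR, with their SE and the p adjusted over all 15503 genes.

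Mpc1 itself was low in every KO library. It had 63.6 to 82.3 CPM in WT-8 and 8.41 to 12 in KO-8 (adjusted p = 6.03e-10, log2 fold change -2.78, SE 0.10), and 61.6 to 83.9 CPM in WT-16 against 9.03 to 26.2 in KO-16 (adjusted p = 0.0012, log2 fold change -2.22, SE 0.25). The groups did not overlap at either time, which held for 5.75% (8 weeks) and 2.3% (16 weeks) of tested genes in this direction. Replicate 1 of KO-16 had the most Mpc1 of the KO libraries, 26.2 CPM. It was also the KO-16 library with the lowest value for 7 of the 9 proteoglycans. Any link between the Mpc1 level of a library and its proteoglycan values was not tested.

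In KO-16 the transcripts of 4 of the 9 proteoglycans, Fmod, Bgn, Omd and Aspn, rose and none fell, where 1.72% of all tested genes rose and 0.832% fell (2.55% in either direction). In KO-8 3 of the 9, Bgn, Aspn and Lum, rose and none fell, against 4.01% and 4.19% of all tested genes (8.19% in either direction). Bgn and Aspn passed at both times. The median log2 fold change of the 9 genes was 1.02 at 16 weeks and 0.391 at 8 weeks, beside medians of 0.0156 and -0.00724 over all tested genes. With the 18S share of each library as a term in the 16-week fit none of the 4 genes passed (adjusted p from 0.0813 for Aspn to 0.137 for Fmod), with log2 fold changes of 1.5 for Bgn, 2.82 for Fmod, 1.44 for Omd and 0.99 for Aspn. In a fit to all 19 libraries, which share 1 estimate of the spread, 7 members passed at 16 weeks and 0 at 8 weeks. The higher calls over all genes moved the same way in that fit, from 267 to 1735 at 16 weeks and from 621 to 17 at 8 weeks. In the fit to the 16-week libraries alone, the count of members that passed also rests on single libraries. It was 0 without replicate 1, 2, 4 or 5 of WT-16 or replicate 4 of KO-16, 1 without replicate 2 of KO-16, 2 without replicate 3 of KO-16 or of WT-16, and 7 without replicate 1 of KO-16. The calls over all genes moved with it, from 267 higher genes to between 26 and 1030, and the direction of these 4 genes stayed the same when any 1 library was left out.

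**Figure D1:**
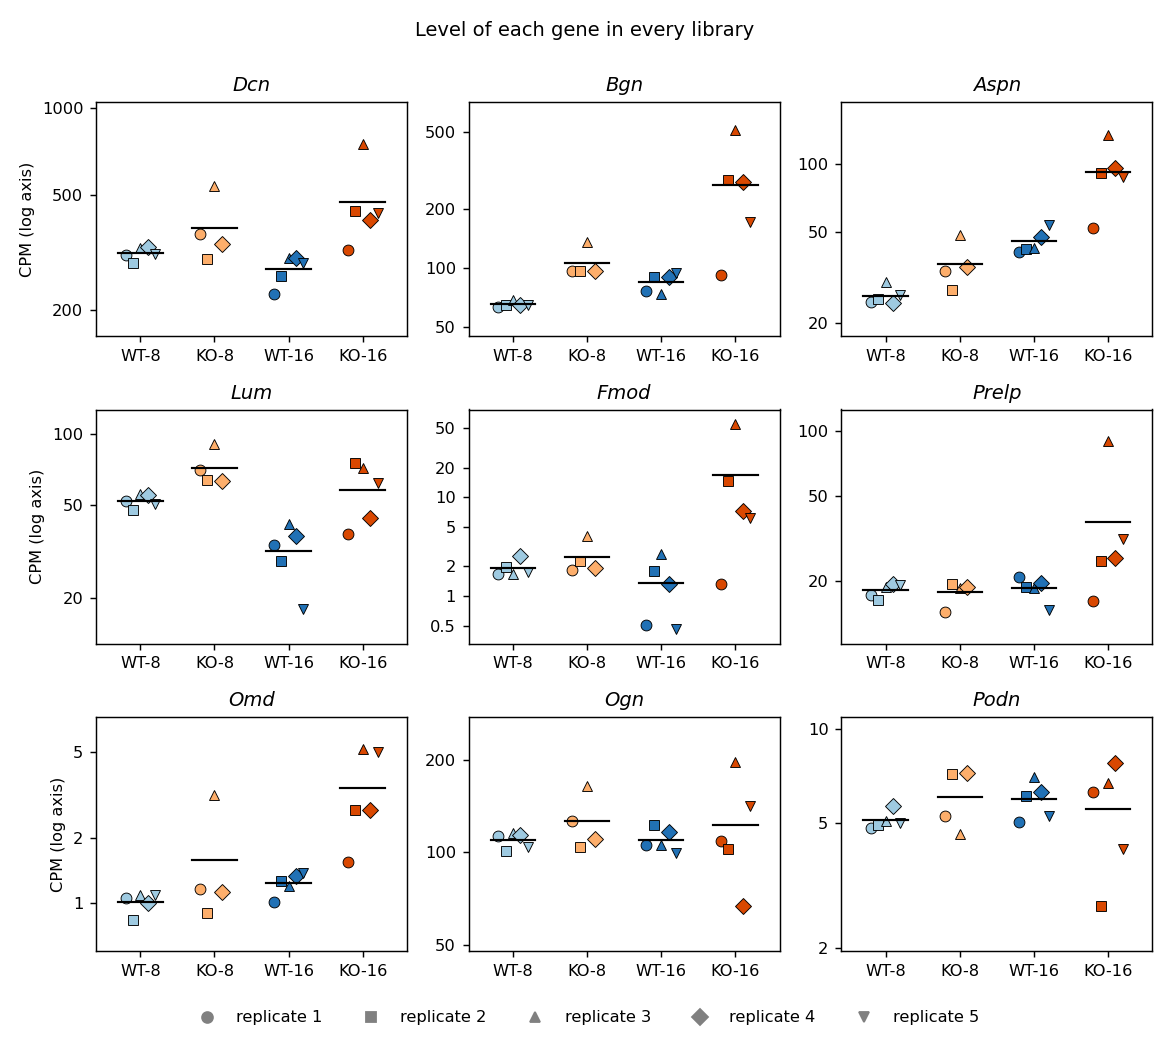
Level of each of the 9 proteoglycans in every library, in CPM on a log axis whose range differs between panels. Each symbol is a library, with its shape giving the replicate number, and the black line is the group mean. Bgn, Aspn and Lum lie higher in KO-8 and KO-16 than in the WT libraries of the same time with few overlaps, Ogn and Podn overlap widely, and replicate 3 of KO-16 tops 7 of the 9 panels.

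**Figure D2:**
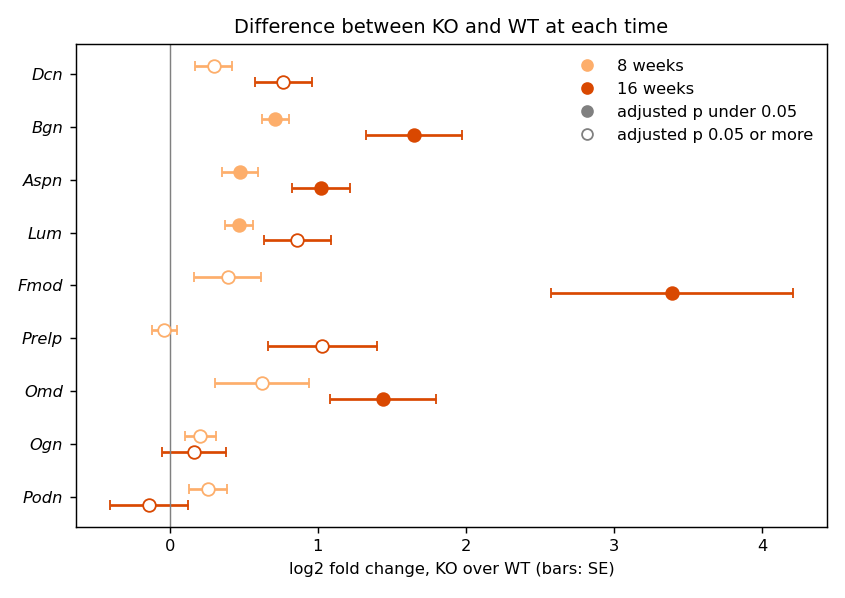
Log2 fold change of KO over WT at 8 and 16 weeks for each proteoglycan, with bars for the SE and filled points for an adjusted p under 0.05 (edgeR). The largest value is that of Fmod at 16 weeks, 3.39 with an SE of 0.82, and Ogn, Podn and, at 8 weeks, Prelp lie near 0.

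Biglycan, decorin and asporin form class I of the family. Biglycan and decorin carry chondroitin or dermatan sulfate chains and bind collagen and transforming growth factor beta, and soluble biglycan is a ligand of toll-like receptors. Bgn had 76.6, 89.8, 74.1, 89.8 and 94.9 CPM in replicates 1 to 5 of WT-16, and 92.4, 282, 509, 276 and 172 CPM in replicates 1 to 5 of KO-16. Replicates 2 to 5 of KO-16 lay above every WT-16 library, whereas replicate 1 lay inside their range. Bgn was 3.14-fold higher in KO-16 (adjusted p = 0.0247, log2 fold change 1.65, SE 0.33), and the log2 fold change was 1.28 without replicate 3 of KO-16 and 1.87 without replicate 1. It passed in 4 of 10 fits with 1 library left out (adjusted p from 0.000345 to 0.0823). At 8 weeks Bgn had 62.8, 65.1, 68.7, 64.7 and 64.4 CPM in WT-8 and 96.4, 97.2, 137 and 96.8 CPM in KO-8. All 4 KO-8 libraries lay above all WT-8 libraries, as in 4.98% of all tested genes, and 3 of them lay within 1 CPM of each other. The difference was 1.64-fold (adjusted p = 0.000399, log2 fold change 0.71, SE 0.09), and Bgn passed whichever library was left out at 8 weeks (adjusted p from 2.94e-05 to 0.00186). It did not pass at 8 weeks when all 19 libraries were fitted together (adjusted p = 0.492).

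Dcn, decorin, was the most abundant transcript of the family. It had 227, 261, 302, 302 and 289 CPM in WT-16 and 320.4, 439.5, 749, 409 and 433 CPM in KO-16. All 5 KO-16 libraries lay above all WT-16 libraries, as in 1.99% of tested genes, and replicate 3 was far above the rest. The 1.70-fold difference did not pass the test (adjusted p = 0.0512, log2 fold change 0.77, SE 0.19). It passed in 7 of 14 alternative analyses, among them DESeq2 (adjusted p = 0.00689), over a range of adjusted p from 0.00653 to 0.179. At 8 weeks Dcn had 308, 290.3, 327, 329 and 310.5 CPM in WT-8 and 364, 298, 537 and 338 CPM in KO-8. Replicate 2 of KO-8 lay within the WT-8 range. The log2 fold change of 0.30 (adjusted p = 0.172, SE 0.13) was 0.09 without replicate 3 of KO-8.

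Aspn, asporin, binds collagen at a site that decorin also uses and carries a stretch of aspartates in place of the usual chains. It had 40.9, 42.3, 42.7, 47.9 and 54.0 CPM in WT-16 and 52.2, 91.2, 134, 96.4 and 87.7 CPM in KO-16. Only replicate 1 of KO-16 lay within the WT-16 range. Aspn was 2.03-fold higher (adjusted p = 0.0231, log2 fold change 1.02, SE 0.19). It passed in 5 of 10 fits with 1 library left out (adjusted p from 0.00033 to 0.0785). At 8 weeks the WT-8 libraries had 24.7, 25.3, 30.2, 24.5 and 26.5 CPM and the KO-8 libraries 33.8, 27.8, 48.7 and 35.3 CPM, with replicate 2 of KO-8 inside the WT-8 range. The 1.39-fold difference passed (adjusted p = 0.0277, log2 fold change 0.47, SE 0.12). Without replicate 3 of KO-8 it was 0.30 on the log2 scale and did not pass (adjusted p = 0.0548), nor did it without replicate 1, 2 or 4 of WT-8 (adjusted p from 0.0622 to 0.0674) or when all 19 libraries were fitted together (adjusted p = 0.49).

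Lumican, fibromodulin, Prelp and osteomodulin form class II, whose members can carry keratan sulfate and sulfated tyrosines. Lum, lumican, limits the width of collagen fibrils. It had 33.6, 28.9, 41.3, 36.6 and 17.9 CPM in WT-16 and 37.4, 74.9, 71.3, 43.9 and 61.9 CPM in KO-16. Replicate 1 of KO-16 lay inside the WT-16 range and the other 4 above it. The log2 fold change of 0.86 (adjusted p = 0.0567, SE 0.23) did not pass at 16 weeks and passed in 6 of 14 alternative analyses (adjusted p from 0.00581 to 0.171). At 8 weeks Lum had 52.0, 47.6, 55.4, 54.9 and 50.2 CPM in WT-8 and 70.3, 63.4, 90.7 and 63.0 CPM in KO-8. All KO-8 libraries lay above all WT-8 libraries, as in 4.98% of tested genes. Lum was 1.38-fold higher (adjusted p = 0.00843, log2 fold change 0.47, SE 0.09) and passed whichever library was left out (adjusted p from 0.00492 to 0.0249). It did not pass when all 19 libraries were fitted together (adjusted p = 0.531).

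Fmod, fibromodulin, binds collagen and takes part in its crosslinking, and is abundant in tendon. It was scarce in WT-16, with 0.505, 1.81, 2.67, 1.33 and 0.459 CPM from 2 to 58 counts per library. The KO-16 libraries had 1.33, 14.6, 55.6, 7.32 and 6.14 CPM. Replicate 1 of KO-16 lay at the WT-16 median, the other 4 lay above every WT-16 library, and replicate 3 was 41.8 times the WT-16 median. Fmod was 10.5-fold higher (adjusted p = 0.0454, log2 fold change 3.39, SE 0.82), and the value of 2.23 without replicate 3 of KO-16 did not pass (adjusted p = 0.1). It passed in 2 of 10 fits with 1 library left out (adjusted p from 0.00284 to 0.118). At 8 weeks it had 1.67, 1.97, 1.66, 2.52 and 1.76 CPM in WT-8 and 1.85, 2.24, 4.04 and 1.90 CPM in KO-8, where only replicate 3 lay above the WT-8 libraries. The log2 fold change was 0.39 (adjusted p = 0.328, SE 0.23).

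Omd, osteomodulin or osteoadherin, is best known from bone. It had 1.01, 1.26, 1.2, 1.33 and 1.38 CPM in WT-16, from 4 to 26 counts, and 1.54, 2.70, 5.18, 2.68 and 4.98 CPM in KO-16. All KO-16 libraries lay above all WT-16 libraries, as in 1.99% of tested genes. Omd was 2.71-fold higher (adjusted p = 0.0484, log2 fold change 1.44, SE 0.36). It passed in only 2 of 10 fits with 1 library left out (adjusted p from 0.00496 to 0.139), and the log2 fold change was 1.21 without replicate 3 of KO-16 (adjusted p = 0.139). Of 14 alternative analyses it passed in 7 (adjusted p from 0.0117 to 0.169). At 8 weeks it had 0.837 to 1.09 CPM in WT-8 and 1.161, 0.896, 3.15 and 1.12 CPM in KO-8. The log2 fold change of 0.62 (adjusted p = 0.258, SE 0.32) was 0.05 without replicate 3.

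Prelp anchors basement membranes to the collagen beneath them. It had 21, 18.8, 18.6, 19.6 and 14.7 CPM in WT-16 and 16.1, 24.8, 90.4, 25.7 and 31.5 CPM in KO-16. Replicate 1 of KO-16 lay within the WT-16 range, and replicate 3 had 90.4 CPM against at most 31.5 in the others. The log2 fold change of 1.03 (adjusted p = 0.121, SE 0.37) was 0.40 without replicate 3. Prelp had 16.5 to 19.6 CPM in WT-8 and 14.4 to 19.4 CPM in KO-8, with a log2 fold change of -0.04 (adjusted p = 0.848, SE 0.09).

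Ogn, osteoglycin or mimecan, belongs to class III and is expressed by cardiac fibroblasts. It had 106, 122, 105, 116 and 99.0 CPM in WT-16 and 109, 102, 196, 66.6 and 141 CPM in KO-16. Replicates 3 and 5 of KO-16 lay above the WT-16 range, replicate 4 below it and the other 2 inside it. The log2 fold change was 0.17 (adjusted p = 0.677, SE 0.22) at 16 weeks and 0.21 (adjusted p = 0.258, SE 0.10) at 8 weeks, where WT-8 had 100.5 to 115 CPM and KO-8 104 to 164 CPM. Podn, podocan, of class V, was first described in the kidney and is made by vascular smooth muscle as well. It had 5.05 to 7.04 CPM in WT-16 against 2.73 to 7.81 CPM in KO-16 (adjusted p = 0.775, log2 fold change -0.14, SE 0.26), and 4.84 to 5.69 CPM in WT-8 and 4.62 to 7.24 CPM in KO-8 (adjusted p = 0.245, log2 fold change 0.26, SE 0.13). For both genes the KO and WT ranges overlapped at each time.

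In each KO group 1 library had the highest value for most of these genes, and in KO-16 replicate 1 had the lowest for 7 of the 9. The order of the remaining libraries changed from gene to gene. Replicate 3 of KO-16 had the highest value of its group for 7 of the 9 genes and 1 of the highest pair for all 9. Replicate 3 of KO-8 had the highest value for 7 of the 9. These libraries share their scaling across genes, so the 9 values of a library are not independent. The summed level of the 8 activated fibroblast markers (Postn, Cthrc1, Acta2, Fap, Comp, Meox1, Cilp and Thbs4) was also highest in replicate 3 among the KO-16 libraries, at 1013 CPM, and lowest in replicate 1, at 131 CPM. In KO-8 the highest sum of these markers, 281 CPM, was in replicate 4 and not in replicate 3 (198 CPM). Replicate 1 had 12.7% and replicate 3 had 5.66% 18S among KO-16 libraries. The part of these markers and of the 18S share in the order of the libraries was not tested.

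**Figure D3:**
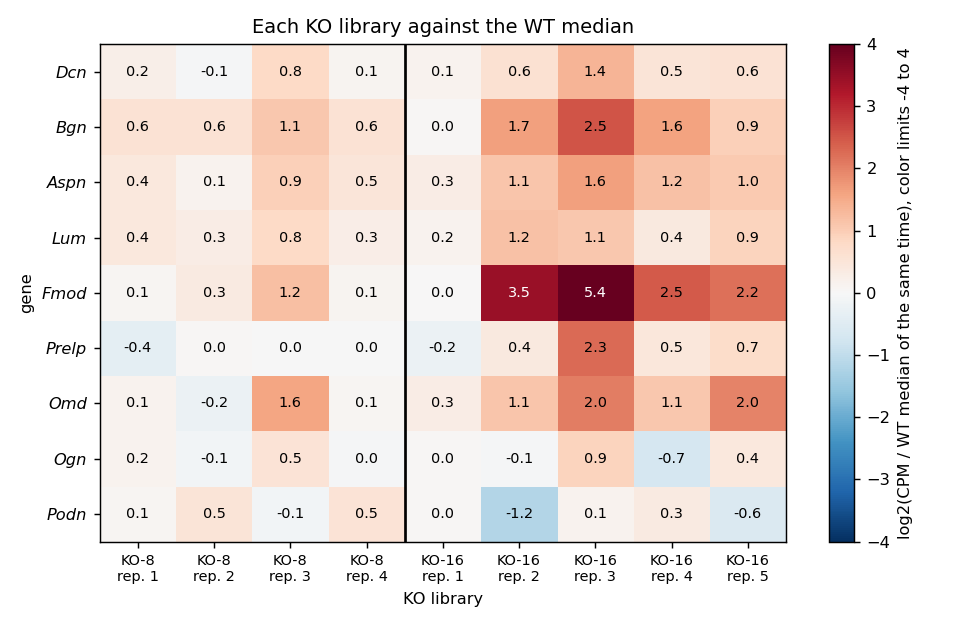
Level of each proteoglycan in every KO library relative to the WT median of the same time, as log2 of the ratio of CPM, with color from blue (lower) to red (higher). Replicate 3 of KO-16 has the strongest red, up to 5.39 for Fmod, and replicate 1 of KO-16 is near 0 for all genes.

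Whether the KO difference changed from 8 to 16 weeks was tested as its own contrast over all 19 libraries. No gene passed with edgeR among 15503 (0%), although 2000 had an unadjusted p under 0.05. DESeq2 called 22 genes higher and 8 lower, none of them a member, and limma-voom with a variance weight per group called 0. For 7 of the 9 proteoglycans the difference was larger at 16 weeks, with changes of 2.96 for Fmod (adjusted p = 0.312, SE 0.98), 1.07 for Prelp (adjusted p = 0.345, SE 0.44) and 0.94 for Bgn (adjusted p = 0.345, SE 0.39) on the log2 scale. Without replicate 1 of KO-16 the changes of Bgn (1.2, adjusted p = 0.0272) and Fmod (3.25, adjusted p = 0.0281) passed. The calls at 16 weeks but not at 8 for Fmod and Omd, and at 8 weeks but not at 16 for Lum, are therefore not shown to differ between the times.

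Per length of annotated exon, the family had a summed level of 146 ± 7.25 CPM per kb in WT-8 (SD, n = 5) and 185 ± 40.9 in KO-8 (n = 4), and of 144 ± 8.82 (n = 5) in WT-16 against 253 ± 99.0 (n = 5) in KO-16. The KO-16 libraries had 157, 244, 420, 213 and 234 CPM per kb, all above the highest WT-16 library (155). In WT-8 the order of the levels per kb was Dcn (53.6 ± 2.67), Ogn (42.5 ± 2.56), Lum (21.2 ± 1.34), Aspn (11.1 ± 0.990), Bgn (10.7 ± 0.353), Prelp (5.05 ± 0.370), Podn (1.2 ± 0.0784), Fmod (0.579 ± 0.110) and Omd (0.451 ± 0.0470). Aspn and Bgn did not differ there beyond their spread. In WT-16 Dcn (47.3 ± 5.55) and Ogn (42.7 ± 3.62) were again first, followed by Aspn (19.4 ± 2.30), and Bgn (13.9 ± 1.5) and Lum (12.9 ± 3.64) lay within 1 SD of each other, as did Omd and Fmod. In KO-16 Dcn stayed first with 80.6 ± 27.9 CPM per kb, and Ogn (47.9 ± 19), Bgn (43.7 ± 25.7) and Aspn (39.2 ± 12.4) did not differ beyond their spread. The lengths count every annotated exon, so a gene with rarely used exons gets a lower value than its main transcript would.

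In the make-up of the family the mean share of Bgn was higher and that of Ogn lower in KO-16 than in WT-16. Bgn made up 9.71% ± 1.07 (SD, n = 5) of the summed CPM per kb in WT-16 against 16.4% ± 5.17 (n = 5) in KO-16, and Ogn 29.8% ± 2.36 and 19.5% ± 5.86. Replicate 1 of KO-16 had a Bgn share of 9.66%, inside the WT-16 range of 8.20% to 11.1%, and the Ogn shares of the groups did not overlap. Dcn kept a similar share, 32.8% ± 2.53 and 32.2% ± 1.81. Fmod went from 0.280% ± 0.187 to 1.58% ± 1.47. In KO-8 the share of Bgn was 9.52% ± 0.636 against 7.30% ± 0.328 in WT-8, with no overlap. Shares of a whole are tied to each other, so 1 gene that rises lowers the shares of the rest.

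**Figure D4:**
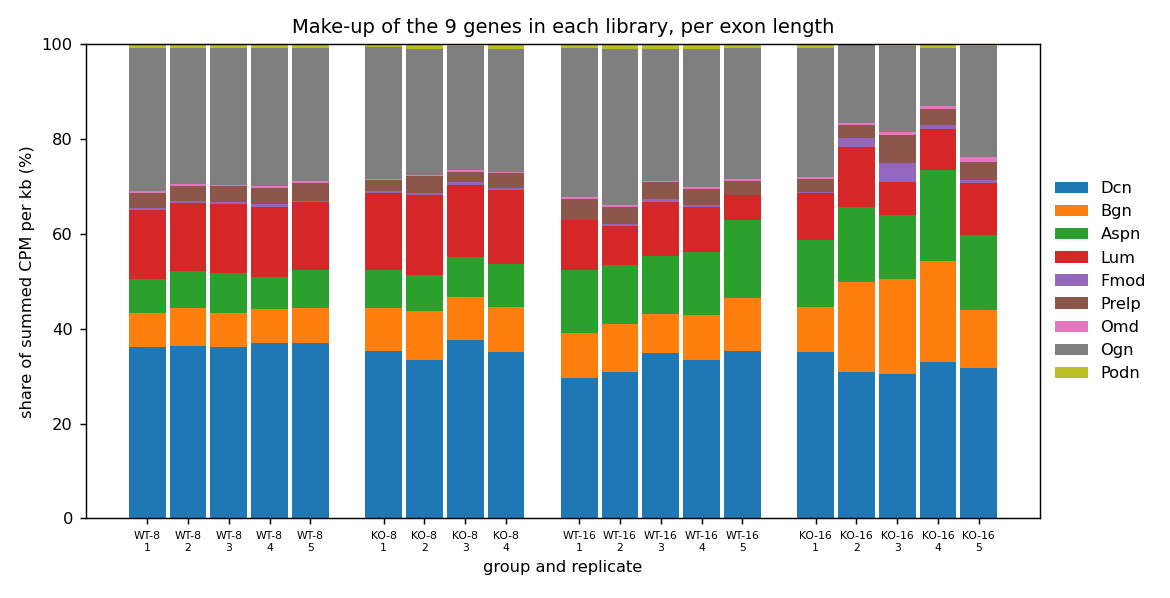
Share of each proteoglycan in the summed CPM per kb of the 9 genes, in percent, for every library. The Ogn share is 12.2% to 27.0% in KO-16 and 27.6% to 33.0% in WT-16, and the Bgn share reaches up to 21.3%.

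Ratios to Dcn within a library, of CPM per kb, do not depend on the scaling of the libraries, and were compared after the data had been seen. The ratio of Ogn to Dcn per length was 1.06, 1.07, 0.793, 0.873 and 0.779 in WT-16 and 0.772, 0.529, 0.596, 0.370 and 0.740 in KO-16. All 5 KO-16 ratios lay below all WT-16 ratios, by 0.64 on the log2 scale on average (two-sided exact permutation p = 0.00794, the smallest that 5 against 5 can give). The ratio of Bgn to Dcn was 0.323, 0.330, 0.234, 0.284 and 0.314 in WT-16 and 0.276, 0.615, 0.651, 0.647 and 0.381 in KO-16 (log2 difference 0.72, exact permutation p = 0.0476). At 8 weeks that ratio was 0.188 to 0.215 in WT-8 and 0.243 to 0.312 in KO-8, higher in 4 of 4 KO libraries (log2 difference 0.43, exact permutation p = 0.0159, the smallest that 4 against 5 can give). Over 16 such ratios, 8 at each time, none passed after Benjamini-Hochberg adjustment, where the lowest adjusted p was 0.0847 by exact permutation. The log2 differences were -0.91 for Podn and 2.28 for Fmod at 16 weeks (exact permutation p = 0.0238 and 0.0397, adjusted p = 0.0847 and 0.0907). By level, Dcn itself had a log2 fold change of 0.77 at 16 weeks, beside 0.17 for Ogn and -0.14 for Podn, and none of these passed. A lower ratio to Dcn is therefore not by itself a fall of Ogn or Podn.

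Of 10 further members of the family, 4 were tested (Ecm2, Tsku, Nyx and Nepn) and none passed at either time. Ecm2, the neighbour of Aspn, had 35.4 ± 6.01 CPM (SD, n = 5) in WT-16 against 47.5 ± 13.3 (n = 5) in KO-16 (adjusted p = 0.188, log2 fold change 0.41, SE 0.18). Kera and Epyc, next to Lum and Dcn, and Optc, next to Prelp and Fmod, had at most 10 counts in any library. Chad, Chadl and Podnl1 were too scarce to test as well.

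Most of the collagens that these proteins bind rose as well. Of 11 tested genes of fibril collagens and collagen VI, 9 rose and none fell at 16 weeks (median log2 fold change 1.22). At 8 weeks 9 rose and none fell (median 0.64). Over all tested genes 1.72% rose at 16 weeks and 4.01% at 8 weeks. With the 18S share as a term, the 267 higher calls over all genes at 16 weeks became 24. The collagen calls were not followed in that fit. Col1a2, a chain of collagen I, rose from 31.4 ± 6.13 to 139 ± 81.2 CPM at 16 weeks (SD, n = 5 each; adjusted p = 0.0174, log2 fold change 2.13, SE 0.38) and by 0.73 at 8 weeks. Col3a1 rose by 1.80, Col5a2 by 2.07 and Col6a1 by 1.07 (log2) at 16 weeks, beside 0.78, 0.68 and 0.51 at 8 weeks.

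Among the enzymes that build the sugar chains, Chst15 and Chst2 rose at 16 weeks. Of 23 tested genes for the linker and for chondroitin and dermatan sulfate, 1 rose and none fell at 16 weeks (median 0.33), where 1.72% of all tested genes rose. It was Chst15, a sulfotransferase of chondroitin sulfate, with 6.73 ± 0.773 CPM in WT-16 against 11.6 ± 2.91 in KO-16 (adjusted p = 0.0413, log2 fold change 0.79, SE 0.19). Dsel and Dse, which turn chondroitin into dermatan sulfate, had log2 fold changes of 0.61 (adjusted p = 0.0668) and 0.87 (adjusted p = 0.132), and Chpf2 had 0.78 (adjusted p = 0.127). At 8 weeks 3 rose (Xylt1, which starts the chains, Chst12 and Papss1) and Csgalnact2 fell, named here after their values were seen, with a median of 0.12 over the list, where 8.19% of all tested genes passed in either direction. Of 7 tested genes of keratan sulfate and tyrosine sulfation, Chst2 rose at 16 weeks (adjusted p = 0.0441, log2 fold change 1.74, SE 0.42) and B4galt1 fell at 8 weeks, by 0.34 (adjusted p = 0.00475).

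Of 12 tested proteases and their cofactors, 1 rose at 16 weeks and 4 rose and 1 fell at 8 weeks. Over all tested genes 1.72% rose at 16 weeks, and 4.01% rose and 4.19% fell at 8 weeks. Mmp2, a gelatinase, rose at both times, by 1.13 (adjusted p = 0.0422, SE 0.27) and 0.40 (adjusted p = 0.012) on the log2 scale. Pcolce, which enhances procollagen cleavage by Bmp1, passed at 8 weeks (log2 fold change 0.46, adjusted p = 0.000226) and had 1.13 at 16 weeks (adjusted p = 0.0556). Mmp14 and Adamts4 passed at 8 weeks with 0.40 and 0.78, and had 1.26 and 1.76 at 16 weeks (adjusted p = 0.0723 and 0.0998). Adamts1, named after its value was seen, fell by 0.67 at 8 weeks.

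Of 20 tested growth factors and receptors bound by the family, 2 rose at 16 weeks and none passed at 8 weeks. Among all tested genes 1.72% rose at 16 weeks, and 8.19% passed in either direction at 8 weeks. Tgfb3, a transforming growth factor beta, rose from 8.09 ± 1.97 to 19.4 ± 6.56 CPM (SD, n = 5 each; adjusted p = 0.0231, log2 fold change 1.23, SE 0.23). Tlr2, a toll-like receptor, rose with an adjusted p that rounds to 0.05 (log2 fold change 1.15, SE 0.29). Ccn2 had a log2 fold change of 1.55 at 16 weeks (adjusted p = 0.0527) and of -0.62 at 8 weeks (adjusted p = 0.0599), and Lrp1 had 1.08 (adjusted p = 0.0555) and 0.26 (adjusted p = 0.0861). Among 19 tested proteoglycans outside the family, 2 rose at 16 weeks, the large aggregating proteoglycans Acan (log2 fold change 3.95, from at most 0.181 CPM in any WT-16 library to 0.906 ± 0.602 in KO-16, SD, n = 5) and Vcan (1.13, adjusted p = 0.0422). At 8 weeks 4 rose, Acan and Vcan among them, and 1 fell. Tgfbr3 and Sdc3 had log2 fold changes of -0.43 and 0.54 at 16 weeks (adjusted p = 0.0638 and 0.0723).

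**Figure D5:**
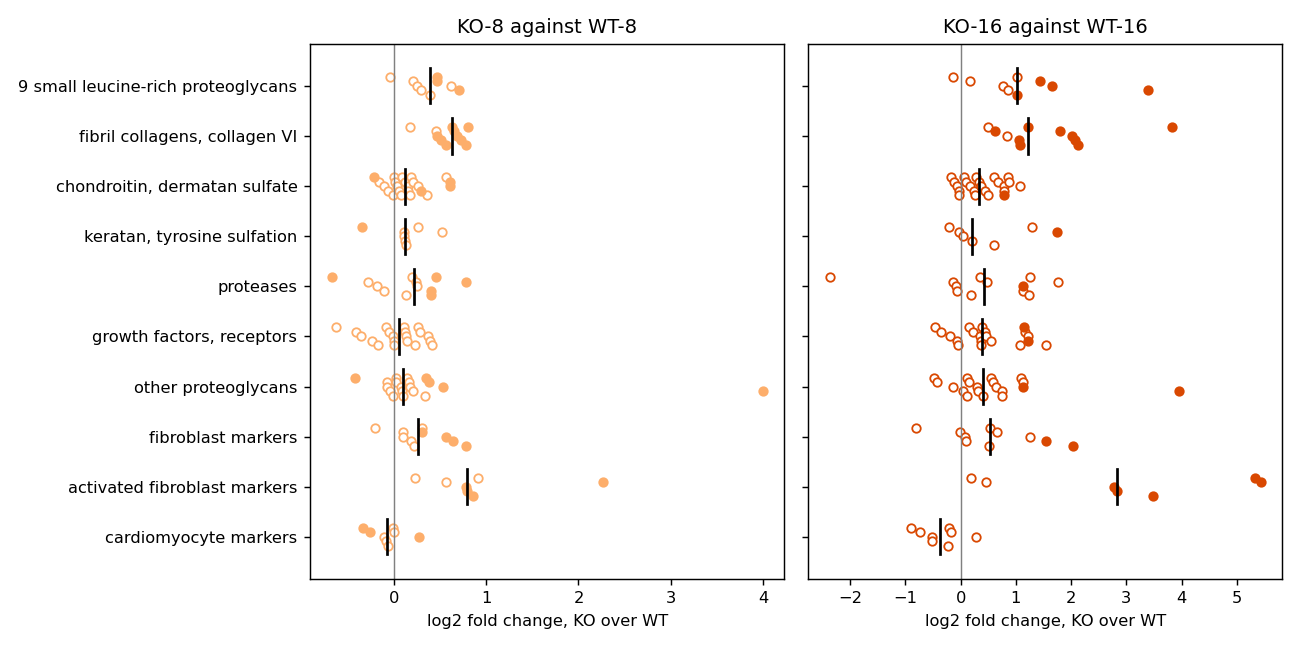
Log2 fold change of each tested gene in the proteoglycan group, the further pathway lists and 3 marker lists, at 8 weeks (left) and 16 weeks (right; the axes differ). Points are genes, filled where the adjusted p was under 0.05 (edgeR), and the black bar is the list's median, 1.02 for the 9 proteoglycans and 1.22 for the collagens at 16 weeks.

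Marker genes of several cell types also moved. For comparison, 1.72% of all tested genes rose and 0.832% fell at 16 weeks, and 4.01% rose and 4.19% fell at 8 weeks. The summed level of 10 fibroblast markers was 192 to 231 CPM in WT-16 against 239 to 352 in KO-16, and 220 to 258 in WT-8 and 259 to 386 in KO-8, without overlap at either time. Of these 10 markers 2 rose at 16 weeks (Pi16 and Mfap5) and 4 at 8 weeks, and none fell. The defining fibroblast marker Pdgfra had a log2 fold change of 0.08 (adjusted p = 0.747, SE 0.13) at 16 weeks and 0.22 (adjusted p = 0.192) at 8 weeks. Of 7 tested activated fibroblast markers 5 rose at 16 weeks and 4 at 8 weeks. Their sum over 8 genes was 68.2 to 146 CPM in WT-16 against 131 to 1013 in KO-16. The part of either marker list in the rises of the proteoglycans was not tested.

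None of 8 cardiomyocyte markers passed at 16 weeks (median -0.37), while 1 rose and 2 fell at 8 weeks, and all were detected in every group, as the tissue label implies. Their sum was 112110 to 128540 CPM in WT-16 against 82021 to 120330 in KO-16, and 102620 to 104420 in WT-8 and 97349 to 103970 in KO-8. Of 8 endothelial markers 1 rose at 16 weeks and 3 at 8 weeks. Their sum was 619 to 659 CPM in WT-8 and 682 to 752 in KO-8, without overlap, and 502 to 565 (median 537) in WT-16 against 549.8 to 813 (median 808) in KO-16, where only replicate 1 lay within the WT-16 range. The part of these markers in the rises of the proteoglycans was not tested. Of 8 smooth muscle and pericyte markers 1 rose at 16 weeks, and 3 rose and 1 fell at 8 weeks. Their median log2 fold change was 0.62 at 16 weeks, with 7 of the 8 above 0, and 0.15 at 8 weeks. Their sum, in which abundant genes weigh most, went the other way at 16 weeks. It was 1237 to 1546 CPM (median 1429) in WT-16 against 968 to 1389 (median 1054) in KO-16. At 8 weeks it was 1103 to 1161.5 CPM in WT-8 and 1037 to 1165 in KO-8. None of 8 macrophage markers passed at either time, with sums of 115 to 152 CPM in WT-16 against 128 to 188 in KO-16. None of 6 erythroid markers passed at 16 weeks (median 1.97), and 1 fell at 8 weeks. Their sum was 53.1 to 132 CPM in WT-16 against 47.5 to 1129 in KO-16. None of 6 epicardial or mesothelial markers passed at 16 weeks and 1 fell at 8 weeks. Adipocyte markers were too scarce to test, with sums of 0 to 40.2 CPM in WT-16 against 0.0617 to 8.63 in KO-16.

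Tissues in which Fmod, Omd and Prelp are abundant were checked by their own markers. Of 7 bone or cartilage markers, 4 were at 0 in every WT-16 library and 3 in every KO-16 library. Their sum was 1.99 to 3.03 CPM in WT-16 against 1.68, 4.85, 10.3, 7.20 and 5.31 in replicates 1 to 5 of KO-16. Replicates 2 to 5 thus lay above every WT-16 library, at a low level. Neither of the 2 tested genes (Sox9 and Runx2) passed at 16 weeks, and both had a log2 fold change above 0 (median 1.15). Of 7 valve or tendon markers 4 were tested and none passed at 16 weeks, with sums of 9.21 to 47.8 CPM in WT-16 against 10 to 35.5 in KO-16. At 8 weeks 1 of the 4, Egr1, fell. The part of these tissues in the values of Fmod and Omd was not tested.

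For each proteoglycan the transcripts with the most similar profile were sought among 11626 genes with a mean of at least 1 CPM, by the root mean square difference of log2 CPM over the 19 libraries after centring each gene. The nearest to Bgn was Igfbp7 (0.252, where Bgn itself varied by 0.822 around its mean), to Dcn Lhfp (0.180), to Lum Col4a5 (0.208) and to Aspn Tro (0.211). Fmod was nearest to Meox1 (0.630), a transcription factor of activated fibroblasts, and next to Nox4 (0.641) and Pamr1 (0.680). Prelp was nearest to Nav1 (0.286), Ogn to Hyal1 (0.234) and Podn to Nos1ap (0.256). No member was among the 3 nearest genes of another. The value for Fmod exceeds the others, and Fmod also varied most, by 1.49 around its mean. All genes of a library share its depth and scaling, and these distances are a description.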

How the data were processed

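Ventricular total RNA, depleted of ribosomal RNA, was sequenced from 19 libraries with a stranded kit, per the labels' protocols. The authors deposited raw counts per gene. Per the file headers, featureCounts 1.6.3 counted read pairs on the reverse strand, gave a pair to the gene it overlapped most, and used Ensembl 96 (GRCm38). Further tools in the submitters' processing notes, without their role, are STAR, RSEM, SAMtools, FastQC and cutadapt. Each 16-week library had 2 files of separate runs, and their counts were summed.

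Differences were tested with edgeR 4.0.16 (quasi-likelihood, filterByExpr and TMM factors over all 19 libraries, a mean per group) in R 4.3.3, on the compared libraries alone at each time and on all 19 for the change between times. P-values were adjusted by Benjamini-Hochberg over 15503 genes, with a threshold of 0.05. Each SE was obtained from the log2 fold change and its F statistic. CPM are counts scaled by library total and TMM factor (0.455 to 1.475). Residual 18S enters the totals, and TMM corrects for it only as an average over genes. CPM per kb divides by the exon length in the files. Ratios to Dcn were compared with exact permutation tests in Python 3.11.15 with scipy 1.17.1.

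The members, lists and tests were chosen with earlier results of these data known. Named were all 9 members, Mpc1, up to 4 genes per pathway list by the smallest adjusted p at 16 weeks, and the nearest 3 genes to each member in centred log2 CPM (prior count 2). Other pathway genes are said to be named after their values were seen. The single marker genes Pi16, Mfap5, Pdgfra, Sox9, Runx2 and Egr1 fell outside this rule and were named with their values known. Promoters came from RefSeq for 7 of the 9 members. Alternatives were other scaling (RLE), other filters, DESeq2 1.42.0, limma-voom (limma 3.58.1) with a variance weight per group, a fit to all 19 libraries, factors from the compared libraries, rRNA and mitochondrial genes left out, sex or the 18S share as a covariate, either file alone and each library left out. Leaving out the male libraries, keeping only 16-week libraries over 20% 18S, and the ratios to Dcn were added after the data were seen.

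The fit was tested on simulated data with 67, 67 and 66 genes changed 1.5-, 2- and 4-fold. The shares recovered at 16 weeks were 13.4%, 59.7% and 87.9% (8 of 115 calls were false), at 8 weeks 70.1%, 100% and 100% (5 of 185), and for the change between times 13.4%, 47.8% and 98.5% (3 of 109). The simulation drew each gene independently, with the same spread in WT and KO. In the data the coefficient of variation of Bgn was 10.8% in WT-16 and 58.8% in KO-16. The simulated shares of false calls therefore do not carry over to the 16-week calls. The genes with the profile most like that of Omd are not reported here.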

Additional observations from a re-analysis of the deposited data

Results flagged for a closer look

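In 5 of 40 groups of values examined (the 9 proteoglycans and Mpc1 in each of the 4 groups), 1 library lay far from the others, by a gap test that marks about 1 group in 20 by chance. All 5 were high values in replicate 3 of a KO group. In replicate 3 of KO-16 Dcn had 748.7 CPM (the other 4 libraries 320.4 to 439.5), Fmod 55.6 CPM (1.33 to 14.6) and Prelp 90.4 CPM (16.1 to 31.5). In replicate 3 of KO-8 Bgn had 136.5 CPM (the other 3 libraries 96.4 to 97.2) and Omd 3.15 CPM (0.896 to 1.161).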

How the results depend on the processing

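At 16 weeks 4 proteoglycans rose in the analysis reported, 7 with no filter or a fit to all 19 libraries, and 0 with a term for the 18S share or without the male libraries. DESeq2 called 6. The genes called changed as well. Limma-voom also called 4, but Dcn and Lum in place of Fmod and Omd, and with sex as a covariate the 3 called were Bgn, Aspn and Lum. Over all genes the higher and lower calls at 16 weeks (267 and 129) became 584 and 355 with no filter, 674 and 525 with DESeq2, 831 and 1019 with limma-voom, 1735 and 1445 in the fit to all libraries, 24 and 9 with the 18S term and 8 and 4 without the males, and 168 were higher over 20% 18S. At 8 weeks (3, 621 and 649) the fit to all libraries gave 0, 17 and 14, and 977 were lower with no filter. For the change between times (0, 0 and 0) no filter gave 38 and 5 and DESeq2 22 and 8 over all genes. Leaving out 1 library at a time gave 0 to 7 members, 26 to 1030 higher and 11 to 877 lower genes at 16 weeks, 414 to 623 lower genes at 8 weeks, and 0 to 2 members, 0 to 330 higher and 0 to 283 lower genes for the change between times. Each smaller fit has fewer libraries, and otherwise the cause was not tested.

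Signs turned only for differences that passed no test. Over 20% 18S Ogn was at -0.10 and Podn at 0.086 (log2). With 1 library left out Ogn ranged from -0.068 to 0.32 and Podn from -0.29 to 0.056 at 16 weeks, Prelp from -0.082 to 0.052 at 8 weeks, and the change of Ogn between times from -0.28 to 0.11. The log2 ratios to Dcn ranged from -0.052 to 0.26 for Lum and from -0.16 to 0.16 for Prelp at 16 weeks, and from -0.015 to 0.17 for Fmod, from -0.031 to 0.29 for Omd and from -0.23 to 0.26 for Podn at 8 weeks. No paired analysis was possible because the labels give no replicate numbers shared between groups. Depth limits Fmod and Omd, with as few as 2 and 4 counts in a WT-16 library.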
